A study of Mus musculus with 38 samples.

Results

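Tubulins are the proteins from which microtubules are built, and their footprints were followed here for 10 genes, the alpha-tubulins Tuba1a, Tuba1b and Tuba4a and the beta-tubulins Tubb2a, Tubb2b, Tubb3, Tubb4a, Tubb4b, Tubb5 and Tubb6. The genes are a list of names, with no measured value in the rule, and are 10 of the 22478 genes with a coding transcript and a symbol. All 10 had counts high enough to be tested in every comparison. The data come from PL-Ribo-seq, in which ribosome-protected mRNA fragments (footprints) are sequenced from a whole lysate (input) and from the ribosomes that a biotin ligase has labelled (pulldown).

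An alpha- and a beta-tubulin form the dimer that is added to the ends of a microtubule. In neurons, microtubules carry transport along axons and dendrites and give both their shape. The members differ in where and when they are made: Tuba1a is the main alpha-tubulin of developing neurons, Tuba1b is made in most cells, and Tuba4a rises in the mature nervous system. Of the beta-tubulins, Tubb2a and Tubb2b are abundant in brain, Tubb3 is the usual neuronal marker, Tubb4a is found in neurons and in myelinating glia, Tubb4b is a building block of cilia, Tubb5 is abundant in embryonic brain and dividing cells, and Tubb6 is found at low levels in many tissues. Cells also lower the stability of tubulin mRNAs when free dimers are in excess, through a factor encoded by Ttc5 that reads the start of the new chain on the ribosome.

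Primary cortical neurons were grown from embryos of the outbred mouse strain CD-1, and all cultures carried a doxycycline-inducible lentiviral TurboID. TurboID-PSD95 is brought to dendrites by elements of the PSD95 transcript, and Pan-TurboID has no localization signal. All cultures were treated with cycloheximide for 2 min and biotin for 30 min according to the labels. The KCl experiment (24 libraries) held resting and depolarized neurons with either ligase, each as input and pulldown, with 3 libraries per group, and depolarization meant silencing with tetrodotoxin and DL-AP5 for 2 h and then 55 mM KCl for 1 h. Silencing is given in the labels for treated neurons, and they do not state it for resting ones, so that silencing and KCl cannot be told apart here. The DHPG experiment (6 libraries, 3 inputs and 3 pulldowns) used neurons that were silenced for 2 h and exposed for 10 min to 100 µM DHPG, which activates metabotropic glutamate receptors of group I. The knockdown experiment (8 libraries, 2 per group) used neurons given siRNA against eIF4G2 at 20 nM, 72 h in all, resting or depolarized in the same way. DHPG and knockdown neurons carried TurboID-PSD95 by the virus field of the labels, although the description of the DHPG inputs and of the knockdown libraries names the cytosol. Non-targeting siRNA libraries were not analysed here. In the libraries used, the knockdown experiment had no group without siRNA against eIF4G2, and the DHPG experiment had no resting group.

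The 38 libraries held 5906281 to 35643247 counted footprints, of which 2048604 to 14646402 lay in the coding sequences (CDSs) of the transcripts used. Levels are given as counts per 1000000 of these CDS counts (CPM). Summed neuronal markers stood at 1146 to 3406 CPM over all libraries, against 226 to 1510 for astrocytes, 228 to 2271 for cycling progenitors and 0 to 20 for microglia. Single markers differed widely, with medians of 381 CPM for Vim and 2.09 for Pax6 (progenitors) and 262 for Slc1a2 and 10.4 for Gfap (astrocytes). The study describes its cultures as devoid of non-neuronal cell types, from immunofluorescence and RNA data. Whether the counts of these markers come from such cells was not tested. Eif4g2 was read at 284 CPM in both resting knockdown inputs and at 337 and 323 CPM in the depolarized ones. These lay below the 456 to 811 CPM of the 12 resting and depolarized inputs of the KCl experiment. DHPG inputs, also without siRNA, stood at 444, 454 and 457 CPM. Knockdown and experiment cannot be told apart in this comparison. Fos, an immediate early gene, rose with KCl by 3.10 ± 0.29 on the log2 scale in untreated inputs (SE, n = 6 against 6, adjusted p = 1e-07). Throughout, an adjusted p comes from the quasi-likelihood test of edgeR, adjusted over all genes tested (Benjamini-Hochberg), a gene was called below an adjusted p of 0.05, and differences are log2 fold changes ± SE. The p-values measure the spread between libraries, since the labels do not say which cultures were prepared separately.

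The tubulin genes are close copies of each other, and this limits which footprints can be assigned to which gene. All 10 genes have 4 CDS segments and CDSs of 1335 to 1356 bases. Tuba1a (mm10, chr15:98950034-98953453, minus strand) and Tuba1b (chr15:98931582-98934335, minus strand) are neighbours whose CDSs differ at 23 of 1356 bases (98.3% identical). Tubb2a (chr13:34074468-34077929, minus strand) and Tubb2b (chr13:34127471-34130233, minus strand) are neighbours too and differ at 47 of 1338 bases (96.5% identical). The other members lie apart, Tuba4a at chr1:75215622-75219195 (minus strand), Tubb3 at chr8:123411606-123421682 (plus strand), Tubb4a at chr17:57080690-57087513 (minus strand), Tubb4b at chr2:25222308-25224590 (minus strand) and Tubb5 at chr17:35834982-35838053 (minus strand). These spans run from the first to the last base of the CDS.

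The ends of the CDSs show both the likeness and the differences, since tubulins differ most in their acidic tails. Below are the last 30 bases of 7 CDSs, 5′ to 3′ on the coding strand, read from mm10, with the last sense codon and the stop codon in capitals.
Tuba4a: tatgaggacgaggatgagggagaaGAGTAG
Tubb2a: gaggaggaggagggtgaagatgagGCTTGA
Tubb2b: gaggaggaagagggcgaggatgagGCTTGA
Tubb3: gaggaatcggaagcccaggggcccAAGTGA
Tubb4a: gaagaggaggctgaagaggaggtgGCTTAA
Tubb4b: gaggaggaggctgaggaggaggtgGCTTAG
Tubb5: ttcggagaggaggcagaagaggagGCCTAA
The last sense codon of Tuba4a encodes glutamate, whereas many alpha-tubulins end in a tyrosine that cells remove and return. Tubb3 ends in a lysine codon and the other beta-tubulins shown end in an alanine codon.

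To see which footprints could come from more than 1 place, every window of 28 bases in each CDS, about the length of a footprint, was searched in the whole genome on both strands. Of the windows of Tuba1b, 98% had an exact copy elsewhere, and of those of Tuba1a 94.1%, with 73.7% of the windows of each present in the other. Another alpha-tubulin gene, Tuba1c, held 72.0% of the windows of Tuba1a and 81.4% of those of Tuba1b. Tubb2b shared 79.8% of its windows and Tubb2a 71.9%, with 62.9% of each in the other. Tubb4b stood at 80.3%, of which only 1.7 points lay in other members, and a processed pseudogene, Tubb4b-ps1, held 67.7% of its windows. Tubb3 shared 32.0% of its windows. The remaining members shared few, with 10.8% for Tuba4a, 8.5% for Tubb6, 6.1% for Tubb5 and 4.7% for Tubb4a, so that Tubb5, Tubb4a, Tubb6 and Tuba4a are the members whose counts can be least affected by copies. How the authors' counting treated reads with several alignments is not given in the sources used here. In addition, the annotated coding gene Gm49450 overlaps Tuba1a and Tuba1b on the same strand, and counting of their exons could be shared with it. Values of Tuba1a, Tuba1b, Tubb2a, Tubb2b and Tubb4b are therefore uncertain as values of single genes.

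**Figure D1:**
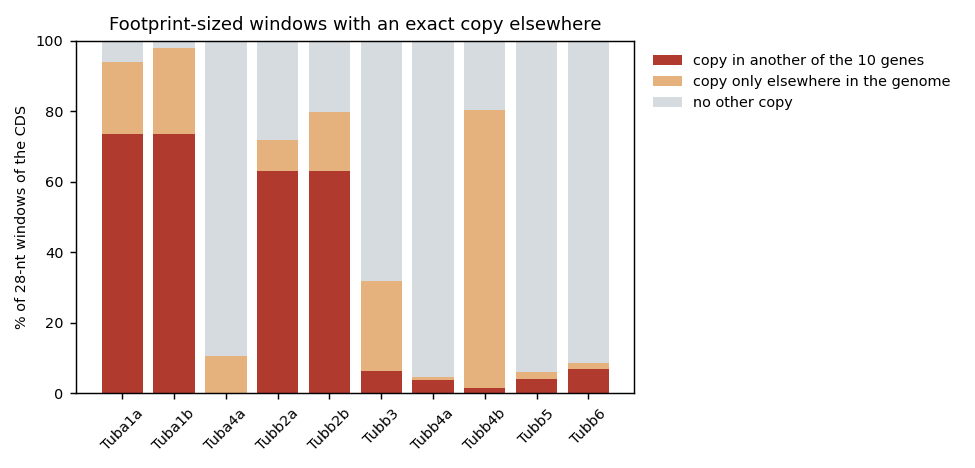
Share of the 28-base windows of each CDS (y axis, in percent) with an exact copy in another of the 10 genes (red), only elsewhere in the genome (orange) or nowhere else (grey). Tuba1a, Tuba1b, Tubb2a, Tubb2b and Tubb4b have copies of 71.9% to 98% of their windows, and Tubb4a, Tubb5, Tubb6 and Tuba4a of 4.7% to 10.8%.

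In resting neurons the beta-tubulins Tubb2a, Tubb2b, Tubb5 and Tubb3 and the alpha-tubulin Tuba1a were among the most translated messages. In the 6 untreated resting inputs, the median level per length was 2483 CPM per kb of CDS for Tubb2a, 1855 for Tubb2b, 1500 for Tubb5, 1417 for Tubb3 and 1160 for Tuba1a. On this scale they ranked 10, 21, 33, 37 and 55 among 17939 genes with a count. The others followed with 580 CPM per kb for Tuba1b (rank 184), 499 for Tubb4a (rank 236), 209 for Tubb4b (rank 771), 112 for Tuba4a (rank 1527) and 94.5 for Tubb6 (rank 1843). Each gene lay above the next in 6 of 6 libraries, except that Tuba1b lay above Tubb4a in 5 of 6. The ranges of neighbours overlapped across libraries, except between Tuba1a and Tuba1b and between Tubb4a and Tubb4b, so that most steps of the order held within libraries and not between them. In the 6 depolarized inputs the order was Tubb2a (1855 CPM per kb), Tubb2b (1338), Tuba1a (1196), Tubb3 (925) and Tubb5 (736). The sum over the 10 genes was 1.44% ± 0.285 of all CDS counts in resting TurboID-PSD95 inputs and 1.40% ± 0.252 in resting Pan-TurboID inputs (SD, n = 3 each). Beta-tubulins made up most of it, with 1.17% ± 0.242 against 0.271% ± 0.0436 for the 3 alpha-tubulins in the former. Tuba1c, which is not among the 10 genes, was counted at 1250 to 6213 CPM over all libraries (median 2411, against 1761 for Tuba1a), and it holds most of the windows of Tuba1a and Tuba1b. The alpha sum leaves Tuba1c out, and reads of Tuba1a and Tuba1b could have been counted there or in other copies. The sums therefore do not compare all alpha- with all beta-tubulins.

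**Figure D2:**
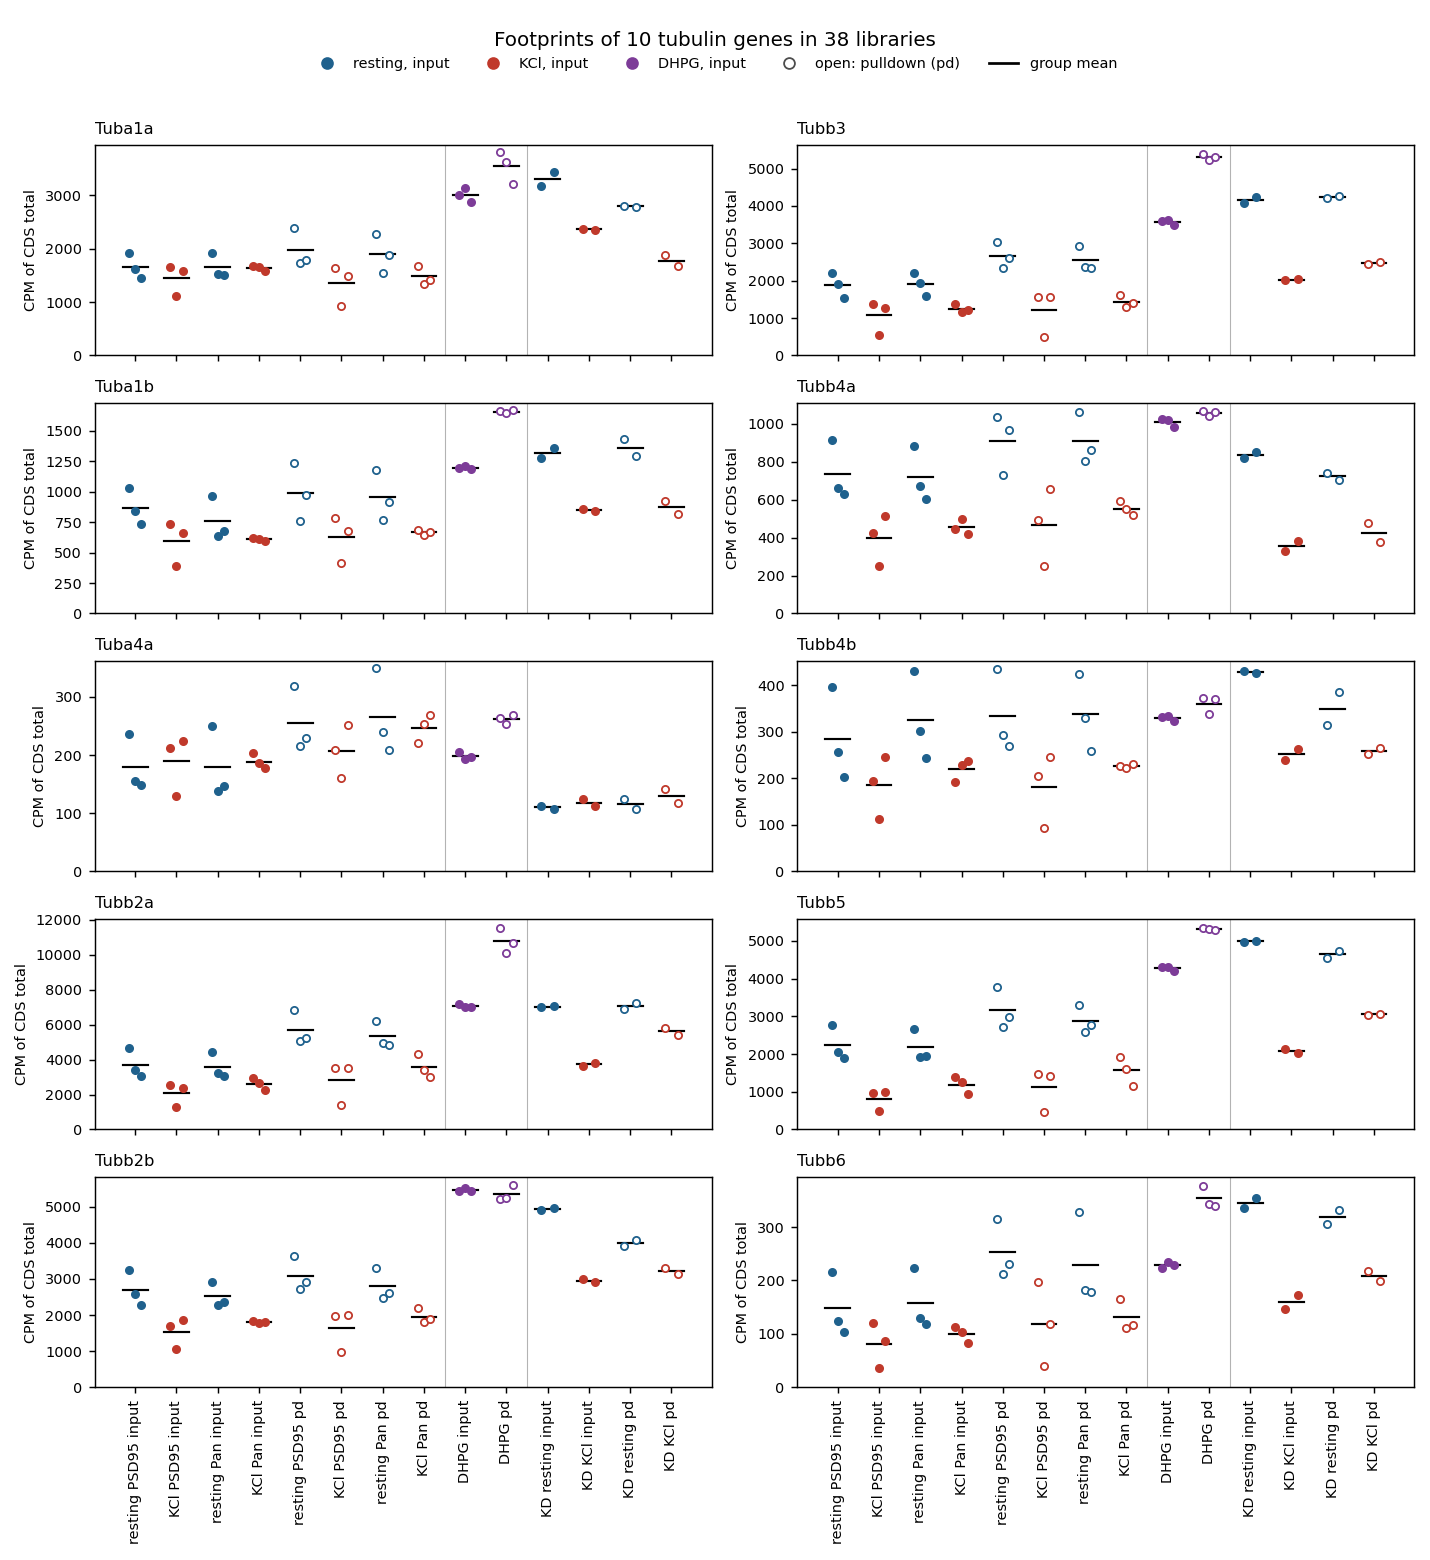
Level of each gene (y axis, CPM of the CDS total, starting at 0) in each of the 38 libraries, by group (x axis; pd, pulldown; KD, knockdown), with filled points for inputs, open points for pulldowns and a bar at the group mean. Tubb5 lies lower in every KCl group than in the resting group of the same fraction, while the inputs of Tuba4a with TurboID-PSD95 span 148 to 237 CPM at rest and 129 to 225 CPM with KCl. Blue marks resting, red KCl-treated and purple DHPG-treated neurons.

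The first comparison asked how depolarization changed the share of footprints on tubulin genes in the whole lysate. Scaled counts do not show a change of the total. The study reports fewer ribosomes on CDSs and less puromycin incorporation after depolarization, so a gene with no difference here need not be translated at an unchanged rate. Passing the test in the KCl response of inputs (both ligases together, 6 libraries against 6) were 4 members, all of them beta-tubulins and all lower with KCl, where 15.4% of all 13019 genes tested were called and 9.03% were called lower. They were Tubb5, Tubb4a, Tubb3 and Tubb2b. The fit counted inputs of both ligases as separate libraries, although the labels do not state that they were prepared separately. Resting replicate 1 was the highest of its input group for 10 of 10 members with either ligase. The 6 libraries may therefore not be 6 separate preparations, and the p-values measure only the spread between libraries. Tubb5 stood at 2760, 2052 and 1906 CPM in the resting TurboID-PSD95 inputs and at 965, 483 and 1000 CPM in the depolarized ones. With Pan-TurboID it stood at 2673, 1928 and 1953 CPM at rest and at 1378, 1266 and 929 CPM with KCl. The ranges did not overlap with either ligase, and Tubb5 fell by 1.12 ± 0.23 (adjusted p = 0.0017), the change with the smallest adjusted p among the members.

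Tubb4a, the beta-tubulin of neurons and myelinating glia, was read at 916, 660 and 627 CPM in resting TurboID-PSD95 inputs and at 424, 250 and 516 CPM in depolarized ones. The Pan-TurboID inputs gave 884, 671 and 605 CPM at rest and 444, 498 and 421 CPM with KCl. Again all depolarized libraries lay below all resting ones, and Tubb4a fell by 0.73 ± 0.19 (adjusted p = 0.00882). The neuronal Tubb3 went from 2204, 1908 and 1528 CPM to 1390, 550 and 1282 CPM with TurboID-PSD95 and from 2197, 1927 and 1592 CPM to 1373, 1163 and 1220 CPM with Pan-TurboID, with no overlap, and fell by 0.66 ± 0.22 (adjusted p = 0.0462). The call of Tubb3 was lost with RLE size factors, no low-count filter, the transcript with the highest count or the CDS length trend removed (adjusted p of 0.0573 to 0.0977) and without any 1 replicate number (0.123 to 0.171). Tubb2b fell by 0.60 ± 0.17 (adjusted p = 0.0151), from 2270 to 3245 CPM over all resting inputs to 1065 to 1874 CPM.

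Its near copy Tubb2a had a similar difference, −0.59 ± 0.21, and missed the threshold (adjusted p = 0.0522), although its resting inputs (3060 to 4644 CPM) did not overlap with its depolarized ones (1260 to 2958 CPM). Tubb2a was called in the likelihood ratio test, in DESeq2, with CDS totals alone, with these groups alone and when counted together with Tubb2b (adjusted p of 0.0188 to 0.049), where 18.2%, 19.3%, 15.1%, 20.5% and 15.4% of all genes were called. In all, 5 of the 10 members had depolarized inputs below all resting inputs, against 7.24% of all genes tested. The differences of Tubb4b (−0.56 ± 0.22, adjusted p = 0.0808) and Tubb6 (−0.72 ± 0.32, adjusted p = 0.144) were not called. The alpha-tubulins were not called either, with −0.38 ± 0.17 for Tuba1b (adjusted p = 0.14), −0.06 ± 0.15 for Tuba1a (adjusted p = 0.835) and 0.12 ± 0.18 for Tuba4a (adjusted p = 0.711). Tuba4a, the alpha-tubulin of mature neurons, was counted at 237, 155 and 148 CPM in resting and at 213, 129 and 225 CPM in depolarized TurboID-PSD95 inputs, which overlapped throughout. The median over the 10 members was −0.60, and that over all genes −0.01. The sum over the 7 beta-tubulins went from 1.17% ± 0.242 to 0.617% ± 0.209 of CDS counts with TurboID-PSD95 and from 1.14% ± 0.205 to 0.765% ± 0.0657 with Pan-TurboID. For the 3 alpha-tubulins the same sums went from 0.271% ± 0.0436 to 0.224% ± 0.0525 and from 0.259% ± 0.0471 to 0.244% ± 0.00775 (SD, n = 3). Whether the alpha- and beta-tubulins differed in their response was not tested.

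By the study's methods, resting and activated samples of a replicate were handled together. The labels do not state that the same number marks the same preparation. In replicates 1, 2 and 3, summed progenitor markers were 2083, 1050 and 572 CPM in resting and 442, 803 and 1193 CPM in depolarized TurboID-PSD95 inputs. With Pan-TurboID they were 1584, 882 and 570 CPM against 452, 960 and 1396 CPM, again in opposite order. With the replicate number as a block, 8 members were called lower with KCl in inputs, where 19.5% of all genes were called. Beside the 4 above these were Tubb2a (−0.61, adjusted p = 0.0104), Tubb6 (−0.71, adjusted p = 0.0181), Tuba1b (−0.39, adjusted p = 0.0351) and Tubb4b (−0.54, adjusted p = 0.0487). Tuba1a (−0.07, adjusted p = 0.751) and Tuba4a (0.13, adjusted p = 0.567) were not called with the block either. The block was the only 1 of 14 alternatives in which Tuba1b was called. Counted together with Tuba1a and Tuba1c, without the block, Tuba1b was at −0.15 (adjusted p = 0.495).

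Markers of several cell types were counted in these libraries. Fewer cells of a type and less tubulin mRNA on ribosomes per cell cannot be told apart in them. In the same comparison, none of the astrocyte (7), oligodendrocyte (6) or progenitor (7) markers tested was called, while 2 of 8 neuronal and 2 of 4 excitatory neuron markers were called lower. Like the tubulin median, the medians of most lists lay below 0, with −0.89 for oligodendrocyte, −0.78 for fibroblast and vessel (0 of 4 called), −0.55 for progenitor, −0.18 for astrocyte and −0.11 for neuronal markers, and 0.28 for those of inhibitory neurons. Summed progenitor markers ranged from 570 to 2083 CPM in resting inputs and from 442 to 1396 CPM in depolarized ones, and the part of these cells in the tubulin values was not tested. The second depolarized TurboID-PSD95 culture had the lowest level of its group for 10 of 10 members, in its input and in its pulldown. Its summed neuronal markers were the highest of any input (3406 CPM) and its CDS total of 4708157 counts lay between those of the other 2 cultures of its group. Its pulldown had summed neuronal markers of 3299 CPM, against 2026 and 1873 CPM in the other pulldowns of the group, and the highest shares of counts in the 5′ UTR among the 19 pulldowns for Tuba1a (37.1%) and Tubb5 (17.2%). Without this culture, Tubb2a, Tubb2b, Tubb3, Tubb4a and Tubb5 were called lower in inputs, where 15.8% of all genes were called. Without replicate 1 of every group Tubb2b and Tubb5 were called, where 16.2% of genes were, and without replicate 2 or 3 of every group Tubb4a and Tubb5, where 6.94% and 3.91% were. Resting replicate 1 had the highest level for 10 of 10 members in each of the 4 resting groups.

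In pulldowns of TurboID-PSD95, which hold ribosomes from dendrites and whatever else the ligase reached, 5 members were called lower with KCl, where 6.59% of all genes were called and 3.28% were called lower. Tubb5 was counted at 3790, 2721 and 2980 CPM at rest and at 1465, 462 and 1417 CPM with KCl, without overlap, and fell by 1.46 ± 0.33 (adjusted p = 0.00883). Tubb3 fell by 1.10 ± 0.32 (adjusted p = 0.0385), from 3044, 2348 and 2620 CPM to 1561, 507 and 1571 CPM. Tubb2a fell by 0.98 ± 0.29 (adjusted p = 0.0437), Tubb4a by 0.92 ± 0.27 (adjusted p = 0.0369) and Tubb2b by 0.86 ± 0.24 (adjusted p = 0.0281). The 5 others ranged from −0.26 for Tuba4a to −1.06 for Tubb6 and were not called, and the member median was −0.89 against 0.03 over all genes. In 8 members all depolarized pulldowns lay below all resting ones, against 11.6% of all genes. With the replicate block 8 members were called lower, where 9.76% of all genes were called, with Tubb6 (−1.20, adjusted p = 0.0114), Tuba1b (−0.64, adjusted p = 0.0256) and Tubb4b (−0.85, adjusted p = 0.047) added. No marker was called in these pulldowns, with medians of −1.07 for oligodendrocyte, −0.72 for fibroblast and vessel, −0.42 for astrocyte, −0.41 for progenitor and 0.02 for neuronal markers, and their part in the tubulin values was not tested. Without the block the calls depended on the libraries used: without the second depolarized culture only Tubb3 and Tubb5 were called (4.15% of all genes), and with the libraries of the 2 groups alone (1% of all genes) or without every replicate 2 (0.85%) or every replicate 3 (0.689%) none was.

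In pulldowns of Pan-TurboID no member was called in edgeR, in its likelihood ratio test or in DESeq2, where 5.03% of all genes were called, and 3 members had an unadjusted p under 0.05. All 10 differences lay below 0, from −0.04 for Tuba4a to −0.80 for Tubb5. Tubb5 was read at 3298, 2572 and 2782 CPM at rest and at 1923, 1607 and 1162 CPM with KCl, and Tubb3 at 2924, 2370 and 2354 CPM against 1614, 1288 and 1402 CPM. In both genes all depolarized pulldowns lay below all resting ones, as they did in 8 of 10 members, against 15.8% of all genes. Without the second depolarized TurboID-PSD95 culture, which enters this comparison only through the shared estimate of the spread, Tubb3, Tubb4a and Tubb5 were called lower, where 6.61% of all genes were called.

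**Figure D3:**
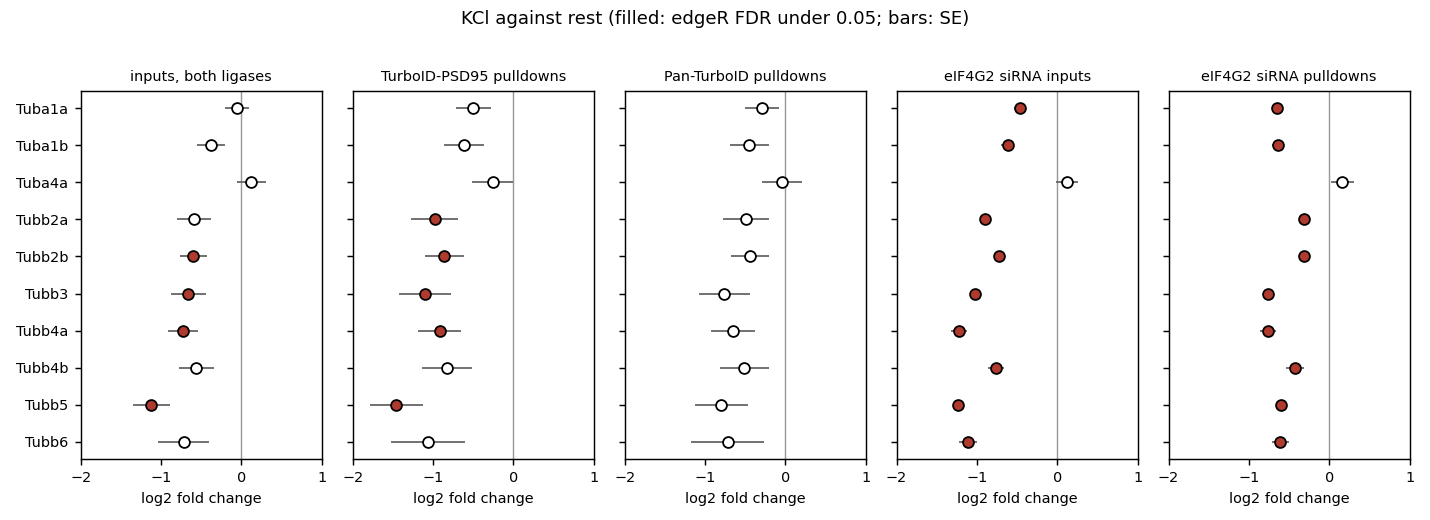
Log2 fold change of KCl against rest (x axis, points, with bars for the SE) of the 10 genes in untreated inputs, TurboID-PSD95 pulldowns, Pan-TurboID pulldowns and knockdown inputs and pulldowns, filled where the adjusted p was under 0.05. Tubb5 lies between −0.60 and −1.46 and Tuba4a between −0.26 and 0.16.

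Neurons treated with siRNA against eIF4G2 were a separate experiment in which the KCl comparison could be made again, with 2 libraries per group. Here the deviations of input and pulldown of the same number from their group means were hardly correlated (r of 0.01 to 0.02 across 7937 genes). The labels do not state whether the 2 libraries of a group come from separately prepared cultures, and the p-values measure only their spread. In their inputs, 9 of 10 members fell with KCl, where 19.3% of all 12239 genes tested were called and 10.3% were called lower. Tubb5 stood at 4976 and 4994 CPM at rest and at 2137 and 2039 CPM with KCl and fell by 1.24 ± 0.06 (adjusted p = 1.05e-13). Tubb4a went from 821 and 849 CPM to 328 and 380 CPM, a fall of 1.23 ± 0.10 (adjusted p = 1.81e-09). Tubb6, the member with the lowest level per length in untreated resting inputs, went from 336 and 354 CPM to 146 and 172 CPM, a fall of 1.11 ± 0.11 (adjusted p = 3.08e-08). None of these groups overlapped, which says little with 2 libraries against 2. The share of all genes without overlap is not given for this comparison.

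Tubb3 fell by 1.02 ± 0.06 (adjusted p = 7.33e-12), Tubb2a by 0.90 ± 0.06, Tubb4b by 0.76 ± 0.10 and Tubb2b by 0.73 ± 0.06. The alpha-tubulins Tuba1b and Tuba1a fell by 0.62 ± 0.08 and 0.47 ± 0.07. The exception was Tuba4a, with 112 and 108 CPM at rest, 125 and 112 CPM with KCl and a difference of 0.12 ± 0.14 (adjusted p = 0.601). The sum over the 10 genes was 2.71% to 2.78% of CDS counts at rest and 1.49% in both depolarized inputs. In these inputs 3 progenitor, 2 astrocyte and 1 of 4 fibroblast and vessel markers (summed 170 and 173 CPM at rest, 280 and 292 CPM with KCl) were called higher and 3 of 8 neuronal markers lower with KCl, with summed progenitor markers at 1303 and 1356 CPM at rest and 2271 and 2232 CPM with KCl, and their part in the tubulin values was not tested. With 1 library per group left out no test was possible, and the member median was then −0.81 and −0.88.

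The knockdown pulldowns showed falls in the same 9 members, where 22.2% of genes were called and 12% were called lower. Here Tubb3 fell by 0.77 ± 0.06 (adjusted p = 1e-09), from 4203 and 4277 CPM to 2449 and 2500 CPM. Tubb5 fell by 0.60 ± 0.06 (adjusted p = 6.98e-08), from 4556 and 4723 CPM to 3044 and 3065 CPM, and Tubb2a and Tubb2b by 0.32 and 0.31. Tuba4a differed by 0.16 ± 0.14 (adjusted p = 0.462). In these pulldowns 3 of 6 progenitor markers (summed 1191 and 1144 CPM at rest, 1954 and 2061 CPM with KCl), 3 of 7 astrocyte and 2 of 3 inhibitory neuron markers were called higher with KCl, while 1 astrocyte, 2 of 7 oligodendrocyte (median −0.73), 1 of 8 neuronal and 1 of 2 microglia markers were called lower, and their part in the tubulin values was not tested. Whether the KCl response itself differed between knockdown and untreated neurons was tested as an interaction, and no member was called in inputs (0.00758% of 13197 genes called) or pulldowns (0.447% called) by edgeR, its likelihood ratio test or DESeq2, and none had an unadjusted p under 0.05. The untreated side of this test was TurboID-PSD95 alone, in whose inputs Tubb5 went from a mean of 2239 to 816 CPM. For Tubb5 the difference between responses, knockdown minus untreated, was 0.20 ± 0.51 in inputs and 0.89 ± 0.51 in pulldowns, so that differences of this size were not detectable with these libraries.

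The next comparisons asked whether tubulin footprints were enriched in the labelled fraction. In resting TurboID-PSD95 pulldowns, set against both resting inputs together as the study does, all 10 members lay above 0, from 0.16 for Tubb4b to 0.76 for Tubb6, with a median of 0.44 against −0.04 over all genes. Tubb2a was the only member called (0.68 ± 0.25, adjusted p = 0.0388), where 31.1% of all genes were called and 14.7% were called higher. It was read at 4644, 3409 and 3060 CPM in TurboID-PSD95 inputs and at 6806, 5081 and 5229 CPM in the pulldowns of the same cultures, a ratio of 1.47 to 1.71 within cultures and without overlap. The call was lost against its own input alone (0.66, adjusted p = 0.0972), when counted together with Tubb2b (0.52, adjusted p = 0.0807), with no low-count filter (adjusted p = 0.0538), with the CDS length trend removed (adjusted p = 0.0624) and without replicate 1 (adjusted p = 0.0558) or 3 (adjusted p = 0.256) of every group. Tuba4a was close to the threshold (0.53 ± 0.21, adjusted p = 0.0546), with 318, 215 and 230 CPM in pulldowns. With the replicate number as a block Tuba4a (adjusted p = 0.0137) and Tubb6 (adjusted p = 0.0131) were called beside Tubb2a (adjusted p = 0.00845), where 36% of genes were called. Within cultures, pulldown exceeded input in CPM for 10, 9 and 10 of the 10 members. The share of all genes for which it did so is not given, so this count is no result about the tubulins. In the resting comparison 3 of 8 neuronal markers (median −0.60) and 1 of 4 fibroblast and vessel markers (median −0.66) were called lower. Called higher were 2 of 3 inhibitory neuron markers, and none of 7 astrocyte markers was called (median 0.57). Progenitor (1 higher, 2 lower) and excitatory neuron markers (2 higher, 1 lower) went both ways. The part of these cells in the tubulin values was not tested.

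An input and a pulldown of 1 culture share their cells, and in the KCl experiment their deviations from the group means were correlated in all 12 cultures (r of 0.34 to 0.70 across 7937 genes). In the DHPG experiment r was −0.19 to 0.06 and in the knockdown experiment 0.01 to 0.02. For the KCl experiment the resting TurboID-PSD95 pulldown was therefore tested again. With each culture as a block and its own input, 7 members were called higher, Tuba1a, Tuba4a, Tubb2a, Tubb3, Tubb4a, Tubb5 and Tubb6, where 41.9% of genes were called. Without the block, 6 were called when the second depolarized culture was left out, where 34.3% of all genes were called, and none when replicate 3 of every group was, where 0.121% were. In depolarized TurboID-PSD95 pulldowns no member was called without the block (18% of genes called, no member with an unadjusted p under 0.05, none in the likelihood ratio test or DESeq2), with a member median of 0.12. With the block Tubb2a, Tubb5 and Tubb6 were called higher, where 34.6% of genes were. Among the markers, without the block, 1 of 4 for excitatory neurons was called higher (median 0.40). Of 7 for progenitors 1 was called higher and 1 lower (median −0.81). No neuronal marker was called (median −0.39), and the part of these cells in the tubulin values was not tested.

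Pan-TurboID pulldowns, in which the ligase has no address, were set against their own inputs, unlike those of TurboID-PSD95. The member median was 0.42 at rest and 0.29 with KCl, against 0.44 and 0.12 with TurboID-PSD95, and no member was called without a block in edgeR, its likelihood ratio test or DESeq2 (9.56% of genes called at rest, with 2 members at an unadjusted p under 0.05, and 8.83% with KCl, with 0 members). With the replicate number as a block Tuba4a was called higher at rest (0.64, adjusted p = 0.0275), where 18.6% of genes were called. With the culture block 7 members were called higher at rest, where 32.9% of genes were, and 5 with KCl, where 32% were. Without the block and without the second depolarized TurboID-PSD95 culture, Tuba4a, Tubb2a and Tubb3 were called higher at rest, where 16.4% of genes were called. Tubb2a had a ratio of pulldown to input of 1.40 to 1.57 within resting cultures, close to its ratio with TurboID-PSD95. Without a block, 2 of 4 excitatory neuron markers were called higher (median 0.35) and 2 of 7 progenitor markers lower (median −1.03) at rest. With KCl these were 1 of 4 (median 0.33) and 1 of 7 (median −0.86). No other marker was called, neuronal markers had medians of −0.44 and −0.38, and the part of these cells in the tubulin values was not tested. The test of the difference between both ligases called no member (0.00768% of genes called, 0.0154% with the block, no member with an unadjusted p under 0.05, none with the block, in the likelihood ratio test or in DESeq2), with differences from −0.17 ± 0.25 for Tuba4a to 0.19 ± 0.46 for Tubb6. The difference between depolarized and resting TurboID-PSD95 comparisons was below 0 for all 10 members, from −0.19 to −0.44, and none was called by any of these tools, nor was any gene in edgeR (0% of genes called, no member with an unadjusted p under 0.05).

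**Figure D4:**
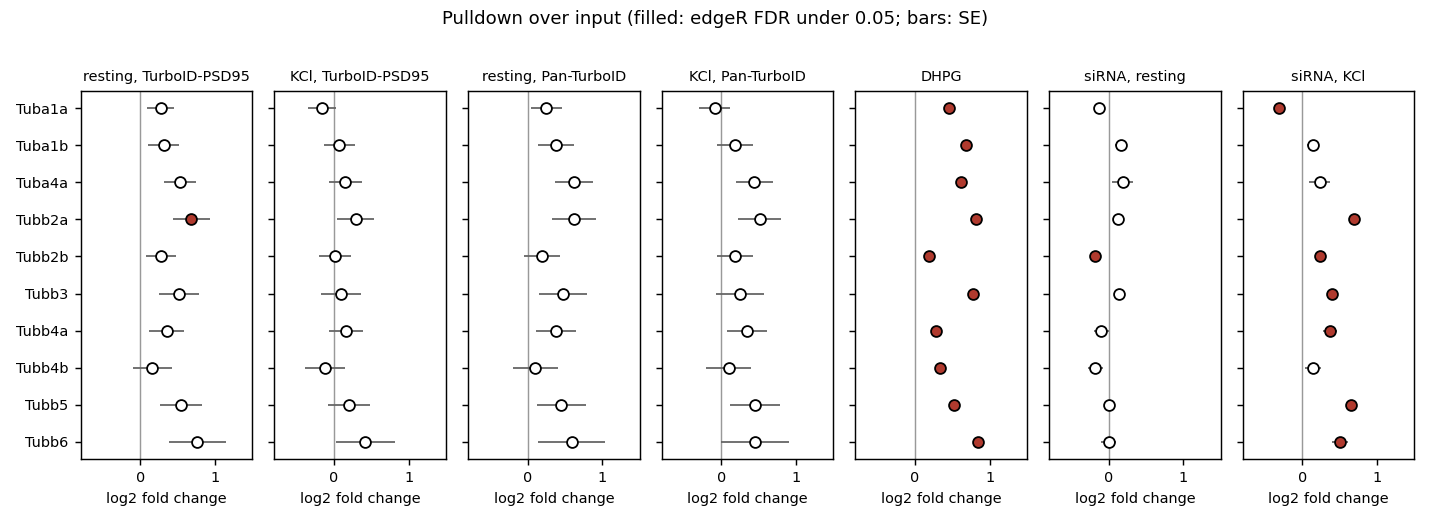
Log2 fold change of pulldown over input (x axis, points, with bars for the SE) of the 10 genes in the 7 pulldown groups, filled where the adjusted p was under 0.05 without a culture block. TurboID-PSD95 pulldowns of the KCl experiment are set against both input groups of the same condition, and the others against their own input. In DHPG all 10 points lie above 0, and in resting siRNA-treated neurons they lie between −0.19 and 0.19.

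In DHPG-treated neurons all 10 members were called higher in the pulldown than in the input, in a comparison that called 79.8% of all 12273 genes tested and 40.5% of all genes higher. Deviations of input and pulldown of the same number from their group means were hardly correlated (r of −0.19 to 0.06). The labels do not state whether the 3 libraries of a group come from separately prepared cultures, and the p-values measure only their spread. Tubb6 was counted at 223, 234 and 229 CPM in inputs and at 377, 343 and 340 CPM in pulldowns, without overlap, and had the largest difference of the members (0.84 ± 0.06, adjusted p = 6.52e-10). Tubb2a stood at 7171, 7018 and 6998 CPM in inputs and 11542, 10114 and 10639 CPM in pulldowns (0.82 ± 0.05). Tubb3 followed with 0.78 ± 0.04, Tuba1b with 0.68 ± 0.05, Tuba4a with 0.61 ± 0.06 and Tubb5 with 0.52 ± 0.04. Tubb2b, the near copy of Tubb2a, had the smallest difference (0.18 ± 0.04, adjusted p = 0.000996), and its inputs of 5423, 5500 and 5423 CPM overlapped with its pulldowns of 5212, 5235 and 5593 CPM. In 9 members all pulldowns lay above all inputs, against 34.3% of all genes. With CDS totals alone every difference was lower by 0.21, Tubb2b was at −0.03 (adjusted p = 0.596) and Tubb4a and Tubb4b were no longer called, where 33.5% of all genes were called higher. In the same comparison 6 of 8 neuronal markers were called lower in the pulldown (median −1.14, summed 1522 to 1609 CPM against 3156 to 3271 CPM). Called higher were 3 of 6 astrocyte and 3 of 3 inhibitory neuron markers. Of 6 oligodendrocyte markers 3 were called lower and 1 higher, and 1 of 2 fibroblast and vessel markers was called lower (median −0.94). Progenitor (2 higher, 2 lower) and excitatory neuron markers (2 higher, 1 lower) went both ways. The part of these cells in the tubulin values was not tested.

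DHPG inputs also lay above resting TurboID-PSD95 inputs of the KCl experiment, with 8 members called higher, where 32.8% of 12803 genes were called and 16.3% were called higher. Tubb2b differed by 1.12 ± 0.11 (adjusted p = 3.48e-06), Tubb2a and Tubb5 by 1.04 each, Tubb3 by 1.03 and Tuba1a by 0.96. Tuba4a (0.24 ± 0.15, adjusted p = 0.239) and Tubb4b (0.31 ± 0.19, adjusted p = 0.237) were not called. All 3 DHPG inputs of Tubb5 (4319, 4316 and 4192 CPM) lay above its resting inputs (1906 to 2760 CPM), as in 8 of 10 members, against 21.1% of all genes. Without replicate 3 of each group 5 members were called, where 10.9% of all genes were called higher, and without replicate 1 all 10, where 11.7% were. The treatment and the experiment cannot be told apart in this comparison. Between the same groups, 6 of 7 astrocyte and 6 of 7 progenitor markers were called lower in DHPG inputs, with medians of −2.48 and −1.91, and the summed astrocyte markers were 226 to 239 CPM against 564 to 1138 CPM. Oligodendrocyte markers were lower as well (4 of 6 called, summed 43.9 to 47.5 CPM against 236 to 580 CPM), as were 3 of 4 fibroblast and vessel markers (median −3.65; summed 34 to 35.3 CPM against 350 to 431 CPM). Of the neuronal markers 2 were called higher and 1 lower (median −0.17), of the excitatory neuron markers 2 higher and 1 lower (median 0.30) and of the inhibitory neuron markers none (median 0.05), and the part of these cells in the tubulin values was not tested. Fos was counted at 41.4, 39.4 and 37.5 CPM in DHPG inputs and at 184, 465 and 354 CPM in resting ones (−2.98 ± 0.43, adjusted p = 0.000634), and whether this activity gene bears on the tubulin values was not tested.

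In resting knockdown neurons, pulldown and input were close in the test, with 5 members above and 5 below 0. In CPM, pulldown exceeded input for 3 and 2 of the 10 members in the pairs of the same number. The share of all genes for which it did so is not given. Only Tubb2b was called (−0.19 ± 0.06, adjusted p = 0.0151), where 45.5% of genes were called and 23.4% were called lower. It was also called with RLE size factors, in DESeq2 and with CDS totals alone, but not in edgeR's likelihood ratio test (adjusted p = 0.0626) or when counted together with Tubb2a (−0.00, adjusted p = 0.981). Tuba1b turned to −0.22 when counted together with Tuba1a and Tuba1c, and lay above 0 in its 12 other alternatives. With RLE size factors 3 members were called higher and 1 lower, where 23.2% of all genes were called higher and 22.4% lower. With CDS totals alone 3 were called lower and none higher, where 18.5% of all genes were called higher and 26.8% lower. DESeq2, which also changes the test, called 1 member higher and 1 lower, where 21.1% of all genes were called higher and 19.5% lower. In depolarized knockdown neurons 6 members were called higher and Tuba1a was called lower, where 48.8% of genes were called, 24% of all genes higher and 24.8% lower. Tubb2a was read at 3647 and 3811 CPM in inputs and at 5816 and 5413 CPM in pulldowns (0.69 ± 0.06, adjusted p = 9.21e-10). Tubb5 was read at 2137 and 2039 CPM in inputs and at 3044 and 3065 CPM in pulldowns (0.65 ± 0.06, adjusted p = 3.34e-09). Tuba1a went the other way, with 2371 and 2361 CPM in inputs and 1878 and 1677 CPM in pulldowns (−0.31 ± 0.07, adjusted p = 0.000805). Counted together with Tuba1b and Tuba1c it was at −0.60 (adjusted p = 4.08e-08). Tuba1b counted alone lay above 0 in its 12 other alternatives and was not called. Of the 8 neuronal markers, 7 were called lower in the resting and 5 in the depolarized knockdown pulldown (medians −0.89 and −0.64), and 3 of 3 inhibitory neuron markers were called higher in both. Of the 7 astrocyte markers, 1 was called higher and 1 lower at rest and 3 higher and 2 lower with KCl. Of the 6 progenitor markers tested, 3 were called higher and 2 lower in both pulldowns, and 2 of 4 fibroblast and vessel markers were called lower in both. Oligodendrocyte markers were called lower for 1 of 7 at rest and 2 of 7 with KCl, 1 of 2 microglia markers was called lower with KCl, 1 of 4 excitatory neuron markers was called higher and 1 lower in both, and the part of these cells in the tubulin values was not tested.

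Knockdown inputs at rest were compared with untreated resting TurboID-PSD95 inputs, where knockdown and experiment cannot be told apart. Only Tuba1a was called (1.02 ± 0.22, adjusted p = 0.00923), where 3.9% of genes were called and 1.89% were called higher, with 3184 and 3438 CPM against 1917, 1612 and 1455 CPM. In all, 9 members lay above 0, with a median of 0.92 against −0.02 over all genes, and 8 had both knockdown inputs above all untreated ones, against 22.5% of genes. Tuba4a went the other way without a call (−0.68 ± 0.26, adjusted p = 0.153), and its knockdown inputs of 112 and 108 CPM lay below its untreated ones of 148 to 237 CPM. The call of Tuba1a was lost without replicate 1, 2 or 3, where 0.64%, 0.0151% and 1.28% of all genes were called. When the fit held these groups alone, 7 members were called higher and 1 lower, where 6.91% of all genes were called higher and 8.72% lower. Tuba1c, which shares most of its windows with Tuba1a, was called higher by 1.53 ± 0.20 in the same comparison. Of the markers, 3 of 3 for inhibitory neurons were called lower in knockdown inputs (median −1.21; summed 441 and 437 CPM against 974 to 1311 CPM), as were 2 of 8 for neurons, 1 of 5 for fibroblasts and vessels (median −2.66; summed 170 and 173 CPM against 350 to 431 CPM), 1 of 7 for astrocytes and 1 of 7 for oligodendrocytes. Of those for excitatory neurons 1 was called higher and 1 lower. Of the progenitor markers none was called (median −0.77). The part of all these cells in the tubulin values was not tested.

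The share of counts upstream of the CDS differed between Tuba1a and its near copy Tuba1b. Over all libraries 31.4% of the counts of the Tuba1a transcript had their 5′ end in the 5′ UTR, against 0.953% for Tuba1b. Tubb2b had a share of 10.5%, against 2.74% for Tubb2a. In both pairs the CDS counts that enter these shares are uncertain as values of single genes. Copies of 5′ UTR sequences were not searched. The other members stood at 9.93% for Tubb4a, 7.18% for Tubb5, 5.32% for Tubb4b, 2.18% for Tubb3, 0.879% for Tuba4a and 0.398% for Tubb6. The share was lower in pulldowns. For Tuba1a it was 33.7% to 55.4% in the 19 inputs and 7.97% to 37.1% in the 19 pulldowns. It was lower in the pulldown of 19 of 19 same-numbered pairs of input and pulldown, which the labels do not call separately prepared cultures. The same held over all genes with a 5′ UTR (15.2% to 27.1% in inputs and 4.44% to 18.4% in pulldowns, lower in 19 of 19), and no test of a difference between Tuba1a and other genes was made. Because 5′ ends were counted without an offset, ribosomes on the first codons are counted in the 5′ UTR, and these shares are not a measure of translation upstream of the start codon. Shares in the 3′ UTR were at most 0.0875% over all libraries.

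**Figure D5:**
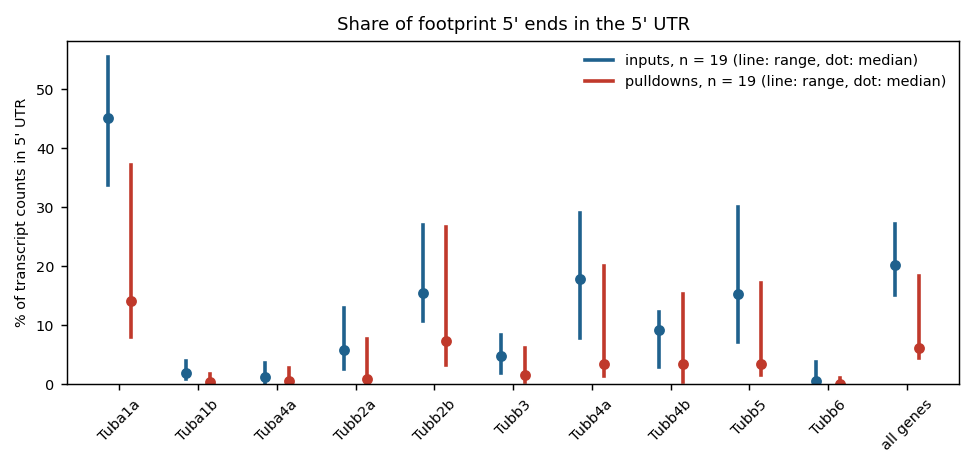
Share of the counts of each transcript whose 5′ end lies in the 5′ UTR (y axis, in percent, starting at 0) in the 19 inputs (blue) and 19 pulldowns (red), with the range as a line and the median as a dot, and all genes with a 5′ UTR at the right. Tuba1a lies highest, with medians of 45.1% in inputs and 14.2% in pulldowns.

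Genes that fold, regulate and modify tubulin were followed as lists of named genes. In the KCl response of inputs, where 15.4% of all genes were called and 9.03% were called lower, 1 of the 2 genes of tubulin mRNA autoregulation was called, Ttc5, which rose by 0.51 ± 0.16 (adjusted p = 0.0288). Of the 4 stathmins, which sequester tubulin dimers, Stmn4 rose by 0.99 ± 0.14 (adjusted p = 1.21e-05) and Stmn3 by 0.41 ± 0.13 (adjusted p = 0.0327). Of the 8 subunits of the CCT chaperonin, which folds tubulin, only Cct2 was called and fell by 0.47 ± 0.13. The prefoldin subunit Vbp1 rose by 0.72 ± 0.18, and Arl2, a GTPase in the list of folding cofactors, rose by 0.54 ± 0.17. Each was the only gene of its list that was called.

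Among the modifying enzymes, Vash1, which removes the last tyrosine of alpha-tubulin, fell by 1.34 ± 0.22 (adjusted p = 9.46e-05). Of the 10 tested genes for glutamylation and glycylation, Ttll11 and Nicn1 rose by 0.89 ± 0.27 and 0.55 ± 0.13 and Ttll4 fell by 1.04 ± 0.36. Clip1, a protein of growing microtubule ends, fell by 0.39 ± 0.13. None was called of the 5 severing genes, the 3 genes for acetylation, the 4 tested deglutamylases, the 9 genes of the gamma-tubulin ring complex or the 8 other tubulin genes tested.

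In the resting TurboID-PSD95 pulldown, where 31.1% of all genes were called and 14.7% were called higher, the same lists held calls in both directions. Called lower were 3 of 6 prefoldin genes, 4 of 7 folding cofactors with their GTPase, 3 of 4 stathmins and 3 of 9 doublecortin and plus-end genes, and called higher were 3 of 9 genes of the gamma-tubulin ring complex. Values of these lists in the Pan-TurboID pulldown are not reported here, so the calls are not shown to be particular to TurboID-PSD95. The lists were not tested again with the CDS length trend removed. At most 2 genes per list and direction are named. Among those called higher were Tcp1 (0.79 ± 0.18) and Cct3 (0.69 ± 0.17) of the chaperonin, the deacetylases Hdac6 (0.83 ± 0.14) and Sirt2 (0.93 ± 0.21), the glutamylases Ttll1 (1.00 ± 0.20) and Ttll7 (0.62 ± 0.22), the folding cofactor Tbcd (0.63 ± 0.20), the deglutamylase Agtpbp1 (0.71 ± 0.23), Tuba8 (1.41 ± 0.40) of the other tubulin genes, and Tubgcp6 (1.61 ± 0.34) and Tubgcp4 (1.15 ± 0.25) of the gamma-tubulin ring complex. Among those called lower were the prefoldin subunits Pfdn5 (−0.95 ± 0.22) and Pfdn2 (−0.94 ± 0.25), the folding cofactors Tbca (−2.05 ± 0.48) and Tbcc (−1.20 ± 0.22), Tubgcp5 of the gamma-tubulin ring complex (−1.52 ± 0.40), Stmn1 (−1.15 ± 0.24) and Stmn2 (−0.62 ± 0.18), both genes of tubulin mRNA autoregulation, Ttc5 (−0.71 ± 0.21) and Cnot11 (−0.94 ± 0.22), and Dcx (−0.71 ± 0.21) and Mapre1 (−0.80 ± 0.25), which bind the lattice and the growing end. List medians ran from −0.85 for prefoldin and −0.83 for the autoregulation genes to 0.83 for acetylation and deacetylation, against −0.04 over all genes and 0.44 for the 10 tubulins.

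Across the means of the 14 groups, on a log2(CPM + 1) scale, the 5 genes most like the summed tubulins among 7937 genes included Plxnc1, a semaphorin receptor (Pearson r = 0.975), Camk4, a calcium-dependent kinase (0.963), Ptprt (0.955) and Mpped1 (0.953). These values describe 14 group means that share cultures and experiments, and carry no test. Ptprt was among the 3 genes closest to Tubb3 (0.973), Tubb5 (0.959) and Tubb6 (0.957), and Add2, a protein of the membrane skeleton, among those closest to Tubb2a (0.968). Tuba1a was closest to Tuba1c (0.948), with which it shares windows, Tuba1b to Plxnc1 (0.974), Tubb2b to Camk4 (0.981), Tubb4a to Gnaz (0.971) and Tubb4b to Cyhr1 (0.936). Tuba4a stood apart from the other 9 members, with r from −0.27 with Tuba1a to 0.36 with Tubb4a, and its closest genes were the kainate receptor subunit Grik3 (0.963), Dnajc6 (0.960) and Grik1 (0.956).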

How the data were processed

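The authors aligned reads to mm10 with Rsubread and counted footprint 5′ ends, without an offset, in CDS and UTR segments of UCSC known genes with Plastid, with a minimum footprint length of 25 nt per the file headers. In the deposited files these are whole-number counts for each segment. Strand use and multiply aligned reads are not given in the sources used here. The alignment names in the headers point to removal of ribosomal RNA reads and of duplicates, which can lower the counts of strongly translated genes such as tubulins.

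Of 67238 coding transcripts, 66750 (99.3%) matched a GENCODE M21 symbol, and the longest transcript of each gene was used. Counts were tested with edgeR 4.0.16 (TMM, filterByExpr, quasi-likelihood F test, Benjamini-Hochberg over all genes tested, FDR 0.05) in R 4.3.3. The KCl experiment was 1 fit of 24 libraries, DHPG of 6, DHPG against rest of 12, knockdown of 8 and knockdown against untreated of 20. Alternatives were DESeq2 1.42.0, edgeR's likelihood ratio test (the study's test of dendritic translation), other scalings, filters, transcripts and sets of libraries, with near-identical copies merged (Tuba1a with Tuba1b and Tuba1c, Tubb2a with Tubb2b). The replicate number was fitted as a block because the study's methods state joint handling of a replicate's resting and activated samples. In 84 same-numbered pairs of KCl libraries, deviations from group means correlated with a lowest r of −0.297 and a median of 0.134, over 0.1 in 47. These pairs include the input and pulldown of each culture, so they do not show that resting and depolarized libraries of 1 number are paired. The test was tried on simulated data. Levels are CPM of the CDS total. The text names all 10 genes, at most 2 genes per related list and direction with the smallest p, and the genes most alike over group means among those with a mean CPM of at least 16. Some of the most alike genes, some genes of the related lists and some CDS ends are not reported here. The members and lists were chosen with earlier results of these data known.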

Additional observations from a re-analysis of the deposited data

How the results depend on the processing

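The counts below are members called, and they show only how the calls depend on the processing. The share of all genes called is given in the text above for some of these settings and is left out here. Without it a count is no result about the tubulins. In the resting TurboID-PSD95 pulldown (1 called), the likelihood ratio test, DESeq2, RLE size factors and the transcript with the highest count gave 2, no filter, the CDS length trend removed, merged copies and the own input alone gave 0, the replicate block by number gave 3, the groups of the comparison alone and the culture block (chosen after seeing the data) gave 7, and leaving out libraries gave 0 to 6. The culture block gave 3 in the depolarized TurboID-PSD95 pulldown, 7 and 5 in resting and depolarized Pan-TurboID pulldowns, where 0 were called without it. In the resting Pan-TurboID pulldown the replicate block gave 1, its groups alone 4 and leaving out libraries 0 to 3. In the KCl response of inputs (4) the replicate block gave 8, the other settings 3 to 6 and leaving out libraries 2 to 5. In TurboID-PSD95 pulldowns (5) no filter gave 3, the CDS length trend removed 2, the replicate block 8, the 2 groups alone 0 and leaving out libraries 0 to 4, and in Pan-TurboID pulldowns (0) leaving out libraries gave 0 to 3. Between DHPG and resting inputs (8) leaving out a replicate gave 5 to 10. In the resting knockdown pulldown (1) the likelihood ratio test gave 0, DESeq2, no filter, the CDS length trend removed and the input and pulldown groups alone 2, CDS totals alone 3 and RLE 4. Between knockdown and untreated inputs (1) the likelihood ratio test gave 4, DESeq2 5, no filter, the highest transcript and the length trend removed 2, the replicate block 3, the groups alone 8 and leaving out a replicate 0. The cause of these moves was not tested. Within the knockdown experiment, leaving out a replicate left no spread to test with. The replicate block changed no other count of calls. Tubb5 was called lower in KCl inputs under all 14 alternatives (−0.95 to −1.19), Tubb4a in 13, Tubb2b in 12 and Tubb3 in 7. Of 709 values of single called members under an alternative, 657 were tested, of which 602 kept direction and call, 54 lost the call and 1 turned, Tubb2b in the DHPG pulldown with CDS totals alone (−0.03). The other 52 had no test.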
